A study of Drosophila melanogaster with 13 samples.

Results

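The genes described here are 10 genes of the *Drosophila* JAK-STAT pathway and of the Turandot family, out of 15682 genes in each count file. They were picked by symbol: the ligands *upd2* and *upd3*, the receptor *dome*, the kinase *hop*, the transcription factor *Stat92E*, the feedback inhibitor *Socs36E*, and the secreted stress peptides *TotA*, *TotC*, *TotM* and *TotX*. Messenger RNA of whole adult heads, from flies aged 0 to 5 days per the labels (1 to 5 days per the methods), was sequenced in 10 libraries, and the study asked which genes depend on the histone methyltransferases trr and G9a. Flies labelled *trr* knockdown carried Elav-Gal4, which is active in neurons, dicer2 and the *trr* hairpin P{TRiP.HMS01019}attP2 (2 libraries), and *trr* controls carried Elav-Gal4 and dicer2 with the empty landing site P{y[+t7.7]=CaryP}attP2 in its place (2 libraries). Flies labelled *G9a* mutant carried the allele G9aDD1 (3 libraries) and were set against the precise excision line G9a+/+ (3 libraries). The study used Elav-Gal4 to target the hairpin to neurons, whereas heads also hold glia, fat body, blood cells and muscle. The sources used here do not give the sexes of the flies.

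The JAK-STAT pathway of flies carries signals between cells. Secreted ligands of the Unpaired family bind the receptor Domeless, the kinase Hopscotch then phosphorylates the transcription factor Stat92E, and Stat92E switches on target genes that include its own inhibitor *Socs36E*. Turandot peptides are made mainly by the fat body and released into the haemolymph after infection, heat and other stress, and *TotA* is a widely used readout of JAK-STAT signalling together with stress kinases and the NF-kappaB factor Relish.

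Counts on genes ranged from 18114408 to 28171883 per library. *trr* (FBgn0023518) was counted 1964 and 2589 times in its controls against 2651 and 2265 in the *trr*-labelled libraries, and *G9a* (FBgn0040372) was counted 1087, 1208 and 1011 times in its controls against 1526, 1732 and 1547 in the *G9a*-labelled libraries. After normalization the log2 fold changes were 0.12 for *trr* (SE 0.15, edgeR adjusted p = 0.679) and 0.27 for *G9a* (SE 0.11, edgeR adjusted p = 0.188). These are counts over whole genes in whole heads, and the hairpin was targeted to neurons. Neither targeted gene was lower in these counts where its loss was labelled. The groups are therefore called *trr*-labelled and *G9a*-labelled libraries throughout, and every direction below rests on those labels. The midgut protease markers summed to 62.2 CPM (counts scaled to 1000000 per library after TMM normalization) in *G9a* control 3 against at most 2.92 CPM in any other library, and *G9a*-labelled library 3 had 794 counts of the testis gene *Mst84Db* against at most 30 in any other library. The neuron markers *elav*, *nSyb*, *Syt1* and *brp* summed to between 3685 and 4319 CPM in all 10 libraries, and the 4 photoreceptor markers to at least 33660 CPM, as in heads.

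For *Socs36E*, the member at whose promoter the study placed a ChIP-qPCR amplicon for trr, the primers are printed here because they are the only sequences of a member in the sources used. *Socs36E* lies on chromosome arm 2L, and each primer reads 5′ to 3′ with no part marked.
*Socs36E* forward: agcactagcgggtggataac
*Socs36E* reverse: aactcgaccactttccagtttc
The values obtained with this amplicon were not analysed here.

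*TotA* and *TotC* were lower in the *G9a*-labelled libraries than in their controls, by 3.11-fold and 4.06-fold. The receptor, the kinase and *Socs36E* differed by 1.07-fold, 1.05-fold and 1.00-fold and were not called. *Stat92E* was lower by 1.35-fold with no overlap, and *TotX* and *TotM* by 1.965-fold and 1.675-fold with overlapping groups. None of these was called. None of the 10 genes passed in the *trr* comparison (0 called). A larger contrast lay between the experiments, since *TotA* was 15.2-fold higher in the *trr* controls than in the *G9a* controls, with *TotC* and *TotX* higher as well. In bulk heads, fewer cells of a type and less RNA per cell cannot be told apart. Genes were tested with edgeR's quasi-likelihood test, and a gene was called where its Benjamini-Hochberg adjusted p-value over all genes tested was under 0.05 and its fold change over 1.5.

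The ligands were close to the floor of 3 counts. *upd2* (FBgn0030904), a ligand that the fat body can release in response to feeding, was counted 3, 3 and 5 times in the *G9a* controls, 0, 2 and 15 in the *G9a*-labelled libraries, 2 and 2 times in both *trr* controls, then 5 and 3 in the *trr*-labelled libraries. *upd3* (FBgn0053542), a ligand induced by wounding and infection, had 0, 2 and 4, then 6, 5 and 2, then 1 and 3, and 8 and 1 counts in the same order. The groups overlapped for both genes in the *G9a* comparison, and no fold is given because so few reads were counted. The edgeR adjusted p-values for *upd2* were 0.915 (*G9a*) and 0.52 (*trr*), and those for *upd3* were 0.672 and 0.595. The founding ligand gene *upd1*, which is no member, had at most 10 counts in any library, with 3 and 3 in the *trr* controls against 9 and 10 in the *trr*-labelled libraries (edgeR adjusted p = 0.216, unadjusted p = 0.0308). With counts this low, no difference in *upd2* or *upd3* RNA was detectable in these libraries.

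*dome* (FBgn0043903) codes for the receptor. It had 1692, 1792 and 1727 counts in the *G9a* controls against 1461, 2183 and 2318 in the *G9a*-labelled libraries, which are 86.1 ± 5.93 CPM (SD, n = 3) against 80.0 ± 9.10 CPM (SD, n = 3). These ranges overlapped, and the log2 fold change was -0.10 (SE 0.11, edgeR adjusted p = 0.597). In the *trr* experiment *dome* had 1440 and 1849 counts in its controls against 2302 and 2018 in the *trr*-labelled libraries. Both labelled libraries, at 86.2 and 80.1 CPM, were above both controls, at 55.2 and 70.9 CPM, and the log2 fold change of 0.40 (SE 0.14) did not pass (edgeR adjusted p = 0.209, unadjusted p = 0.0275). Without *trr* control 2 *dome* was called, at a log2 fold change of 0.59, and without *trr* control 1 the change was 0.22.

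*hop* (FBgn0004864) codes for the only JAK kinase of the fly. Its counts were 674, 871 and 794 in the *G9a* controls, 682, 1085 and 966 in the *G9a*-labelled libraries, 755 and 899 for both *trr* controls, then 981 and 924 in the *trr*-labelled libraries. Over all 10 libraries its highest normalized level was 1.41 times its lowest. The *G9a* groups overlapped (log2 fold change -0.06, SE 0.11, edgeR adjusted p = 0.761). The *trr*-labelled libraries, at 36.7 CPM each, were above both *trr* controls, at 29.0 and 34.5 CPM, by a log2 fold change of 0.21 (SE 0.12, edgeR adjusted p = 0.38).

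*Stat92E* (FBgn0016917), the transcription factor, had 2605, 2613 and 2575 counts in the *G9a* controls against 2127, 2877 and 1996 in the *G9a*-labelled libraries. After normalization the controls lay at 143, 119 and 125 CPM and the labelled libraries at 102, 108 and 75.7 CPM, with no overlap. The log2 fold change of -0.44 (SE 0.14, 95% interval -0.76 to -0.12) missed the threshold, with an edgeR adjusted p of 0.0901. DESeq2 gave an adjusted p of 0.0231, with a change still under 1.5-fold. In the *trr* experiment *Stat92E* had 4108 and 2968 counts for the controls against 3286 and 3030 in the labelled libraries, which lay between the controls after normalization (log2 fold change -0.16, SE 0.16, edgeR adjusted p = 0.594).

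*Socs36E* (FBgn0041184), which Stat92E activates and which dampens the pathway in turn, had the narrowest range of the 10 genes, with its highest level 1.36 times its lowest. It had 1084, 1181 and 1092 counts in the *G9a* controls against 1139, 1505 and 1454 in the *G9a*-labelled libraries. These are 55.4 ± 3.52 CPM and 55.4 ± 1.00 CPM (SD, n = 3 each). The groups overlapped, and the log2 fold change of 0.001 (SE 0.09) had a 95% interval from -0.20 to 0.21, which is a bound on the change in either direction. In the *trr* experiment the controls gave 1373 and 1867 counts, the *trr*-labelled libraries gave 1829 and 1799, and the groups overlapped here too (log2 fold change 0.17, SE 0.15, edgeR adjusted p = 0.556).

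In this experiment *trr* control 1 stood apart from the other 3 libraries for several of these genes. It was the lowest for *dome*, *hop* and *Socs36E*, where it had 52.7 CPM against 68.5 to 71.6 CPM in the other 3 libraries, and the highest for *Stat92E*, at 157 CPM against 114 to 123 CPM. Without it the log2 fold changes were -0.04 for *Socs36E* and 0.09 for *Stat92E*.

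**Figure D1:**
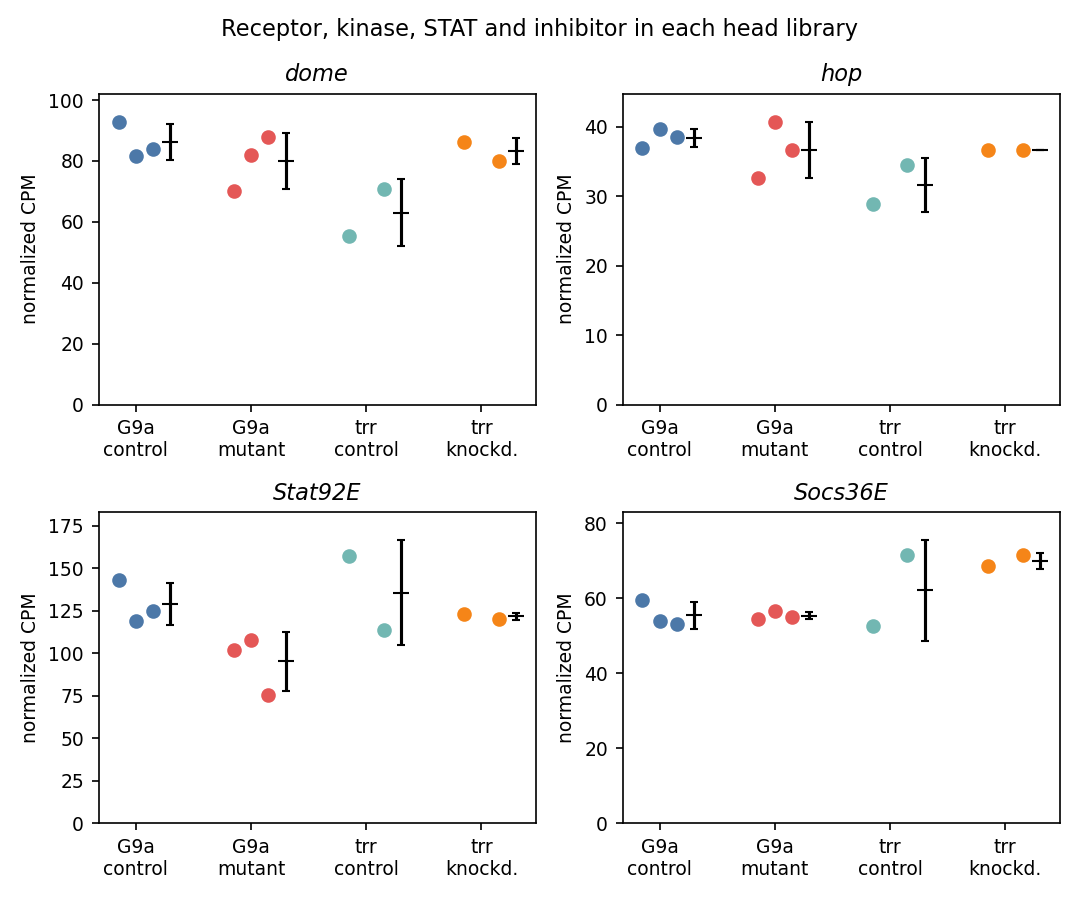
Normalized CPM of *dome*, *hop*, *Stat92E* and *Socs36E* in each library (points), by labelled group, with the mean and SD at the right of each group; every vertical axis starts at 0. *Socs36E* lies between 52.7 and 71.6 CPM in all 10 libraries, and *Stat92E* is lower in the 3 *G9a*-labelled libraries than in the 3 *G9a* controls.

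Among the targets, *TotA* (FBgn0028396), a humoral stress peptide, had 66, 201 and 153 counts in the *G9a* controls against 39, 52 and 70 in the *G9a*-labelled libraries. After normalization the controls lay at 3.62, 9.16 and 7.43 CPM and the labelled libraries at 1.87, 1.95 and 2.65 CPM. Every labelled library was below every control. The log2 fold change was -1.64 (SE 0.36, edgeR adjusted p = 0.0251), and *G9a* control 1 was the control nearest to the labelled libraries.

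*TotC* (FBgn0044812), the neighbour of *TotA* on chromosome arm 3R and a peptide of the same family, had 39, 91 and 52 counts in the *G9a* controls against 20, 12 and 20 in the *G9a*-labelled libraries. Its normalized level was 2.94 ± 1.06 CPM against 0.722 ± 0.256 CPM (SD, n = 3 each), with no overlap. The log2 fold change was -2.02 (SE 0.43, edgeR adjusted p = 0.0216). *TotA* and *TotC* were thus 2 of 10 members called, both lower, where 7.56% of the 12329 genes tested were called and 5.57% were called lower.

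These calls rest on few reads and few libraries. In 16 alternatives *TotA* stayed between -1.94 and -1.35 and *TotC* between -2.28 and -1.69 on the log2 scale. The edgeR or DESeq2 adjusted p-values ran from 0.000571 to 0.136 for *TotA* and from 0.000872 to 0.0999 for *TotC*. Both calls were lost without *G9a* control 2 (*TotA* -1.35, *TotC* -1.69), without *G9a* control 3 (-1.57 and -2.13) and without *G9a*-labelled library 2 (-1.57 and -1.77), and that of *TotA* also without *G9a*-labelled library 1 (-1.55, edgeR adjusted p = 0.0702). The test against a change of 1.5-fold (glmTreat) lost both calls (adjusted p = 0.136 for *TotA* and 0.0913 for *TotC*), and with the share of reads outside genes as a covariate *TotA* missed the threshold at 0.051. Without replicate 3 of both groups, the libraries with midgut and testis reads, both genes stayed called (*TotA* -1.75, edgeR adjusted p = 0.0435, and *TotC* -2.19, edgeR adjusted p = 0.0365), in a fit added after the values had been seen.

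*TotX* (FBgn0044810), another stress-induced Turandot gene, had 10, 43 and 31 counts in the *G9a* controls against 15, 12 and 23 in the *G9a*-labelled libraries. The groups overlapped, since *G9a* control 1 was below the labelled libraries 1 and 3 in CPM. The log2 fold change of -0.97 (SE 0.56) had a 95% interval from -2.27 to 0.32 (edgeR adjusted p = 0.322).

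*TotM* (FBgn0031701), a Turandot gene that lies on chromosome arm 2L apart from the others, had 179, 199 and 216 counts in the *G9a* controls against 196, 20 and 197 in the *G9a*-labelled libraries. Library 2 stood far below the other 9 libraries, at 0.751 CPM against 5.29 to 10.5 CPM, while its *dome* and *Socs36E* levels lay within the range of the other libraries. The log2 fold change was -0.74 (SE 0.67, edgeR adjusted p = 0.518), and without that library it was -0.22.

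**Figure D2:**
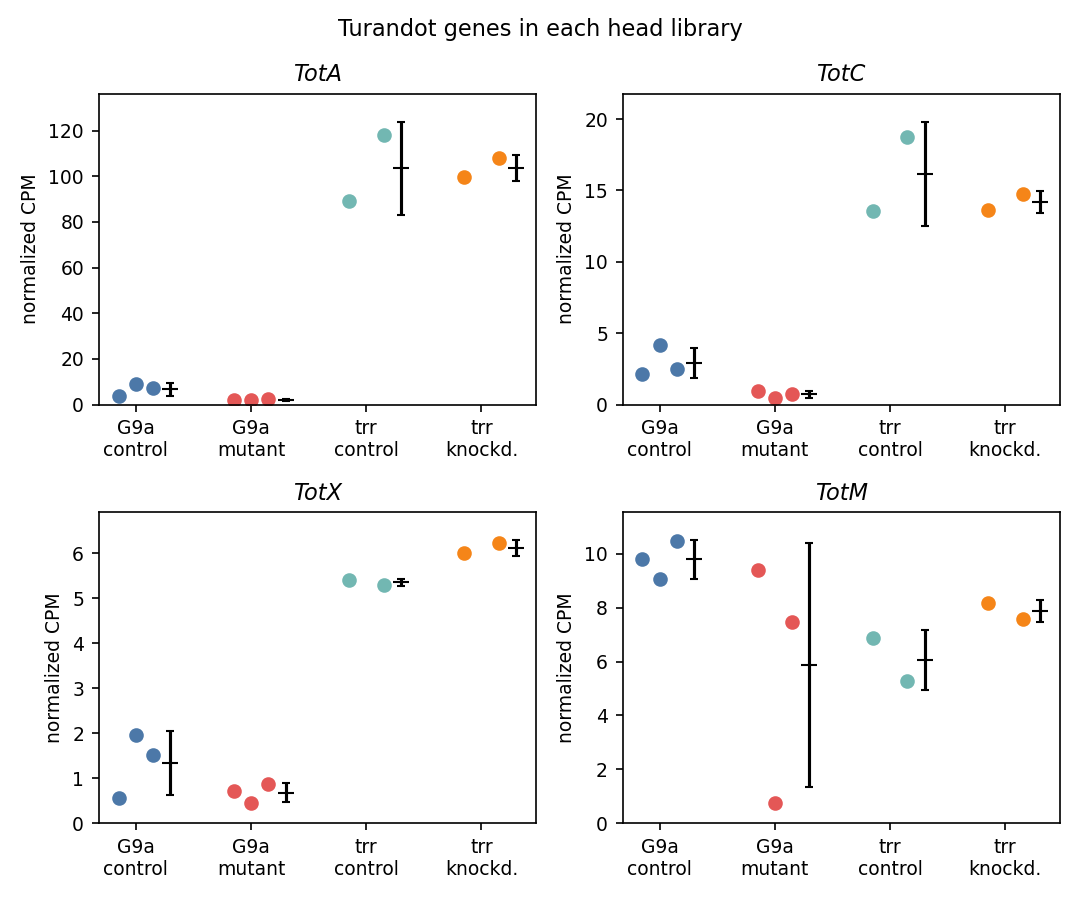
Normalized CPM of *TotA*, *TotC*, *TotX* and *TotM* in each library (points), by labelled group, with the mean and SD at the right of each group; the vertical axes start at 0 and differ between genes. *TotA*, *TotC* and *TotX* are higher in the 4 libraries of the *trr* experiment than in the 6 of the *G9a* experiment, and *TotM* is near the others in all but 1 library.

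The *trr* experiment had more reads of *TotA*, *TotC* and *TotX*, and none of the Turandot genes was called between its groups. *TotA* had 2324 and 3077 counts for the controls against 2661 and 2714 in the *trr*-labelled libraries, which lay between the controls (103 ± 20.4 CPM against 104 ± 5.74 CPM, SD, n = 2 each). Its log2 fold change was 0.002 (SE 0.15), with a 95% interval from -0.36 to 0.36. *TotC* had 354 and 489 against 364 and 371 counts, at a log2 fold change of -0.19 (SE 0.19, edgeR adjusted p = 0.592). *TotX*, with 141 and 138 against 160 and 157 counts, and *TotM*, with 179 and 138 against 218 and 191, were higher in both labelled libraries than in both controls, by log2 fold changes of 0.19 (SE 0.17) and 0.37 (SE 0.20), and neither passed (edgeR adjusted p = 0.555 and 0.344).

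Across the *trr* comparison 0 of the 10 members were called, where 1.03% of the 11416 genes tested were called. At an unadjusted p under 0.05 there was 1 member, *dome*, and DESeq2 called 0 as well. With 2 libraries a group, the 95% interval of *TotA* leaves room for a change of up to 0.36 on the log2 scale in either direction.

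**Figure D3:**
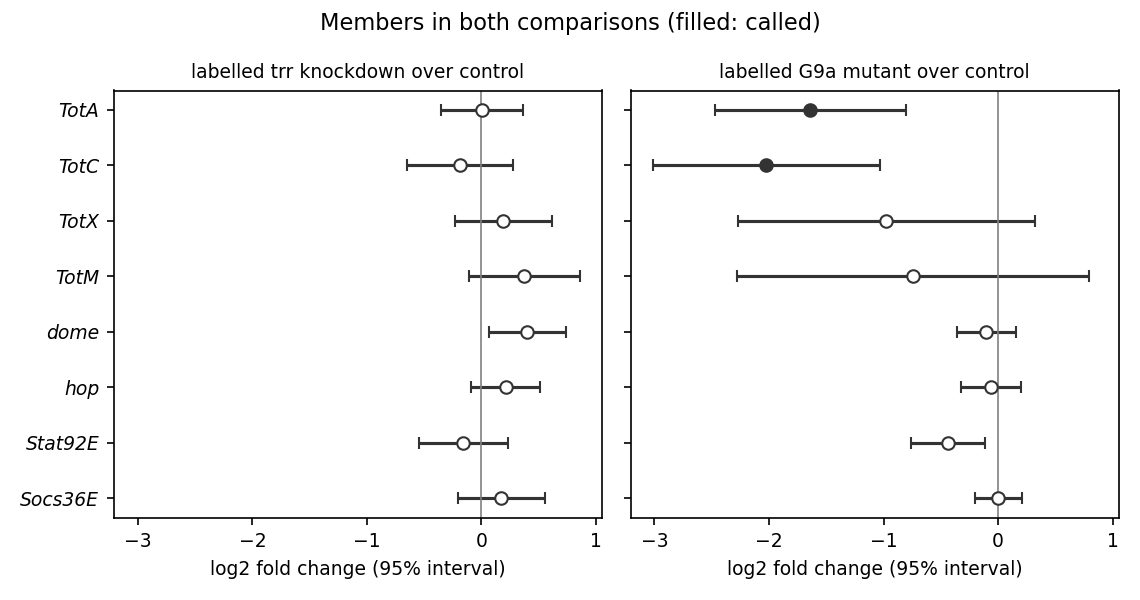
Log2 fold change with its 95% interval for the 8 members with enough counts, for the *trr*-labelled (left) and *G9a*-labelled (right) libraries over their controls; filled points passed the test. *TotA* at -1.64 and *TotC* at -2.02 in the *G9a* comparison are the filled points, and the intervals of *TotX* and *TotM* there span 0.

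Whether the effects differed between the experiments was tested in 1 fit over all 10 libraries, as the *trr* change minus the *G9a* change. *TotA* differed by 1.65 on the log2 scale (SE 0.41, edgeR adjusted p = 0.0314) and *TotC* by 1.86 (SE 0.44, edgeR adjusted p = 0.0245), so that 2 of 10 members were called, where 9.26% of the 12871 genes tested were called. For *TotX* the difference was 1.18 (SE 0.61, edgeR adjusted p = 0.272) and for *TotM* 1.12 (SE 0.90, edgeR adjusted p = 0.491). *TotA* lost its call without *G9a* control 2 (1.37) or 3 (1.58), and without *G9a*-labelled library 1 (1.56). Both genes lost it without *G9a*-labelled library 2 (*TotA* 1.57, *TotC* 1.60), without *trr* control 1 (1.45 and 1.64) and without *trr*-labelled library 1 (1.70 and 1.91) or 2 (1.58 and 1.79). Without *trr* control 2 *dome* was called as well, which made 3 members.

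The 2 sets of controls were also compared. This contrast was added after the values had been seen. *TotA* was higher in the *trr* controls than in the *G9a* controls by 3.93 on the log2 scale (SE 0.28, edgeR adjusted p = 3.88e-06), *TotC* by 2.45 (SE 0.29, edgeR adjusted p = 0.000104) and *TotX* by 1.98 (SE 0.42, edgeR adjusted p = 0.00449). These 3 of 10 members were called higher, where 14.0% of the 12871 genes tested were called higher. *TotM* went the other way (-0.69, SE 0.64, edgeR adjusted p = 0.447), and *dome* was lower by 0.45 (SE 0.13, edgeR adjusted p = 0.0257), which is under 1.5-fold. *Socs36E* differed by 0.16 (SE 0.12, edgeR adjusted p = 0.348) and *Stat92E* by 0.07 (SE 0.17, edgeR adjusted p = 0.779). Genes of the lists described below differed as well. Of 8 genes described as responding to the pathway, *vir-1*, *Diedel*, *Listericin* and *Tep2* were called higher and *Tep4* lower. Of 13 antimicrobial peptide genes 5 were called higher and 1 lower. Among 7 other pathway genes only *et* was called, and it was higher, as was 1 of 11 genes of the stress kinase and NF-kappaB routes. The genotypes of the controls, the crosses and the experiments differ together here and cannot be told apart.

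Within a library the Turandot genes kept different proportions in the 2 experiments. *TotA* had between 1.69 and 4.33 times the counts of *TotC* in the 6 libraries of the *G9a* experiment and between 6.29 and 7.32 times in the 4 of the *trr* experiment, with no overlap. Over the 10 libraries the log2 CPM of *TotA* correlated with that of *TotC* at r = 0.973 and with that of *TotX* at r = 0.977, and with that of *TotM* at r = 0.207. These values describe 10 libraries in which the step between the experiments is shared by all pairs. Over the 6 libraries of the *G9a* experiment alone the values were 0.911, 0.871 and 0.489. Those values still carry the step between the *G9a* controls and the *G9a*-labelled libraries, where *TotA* and *TotC* were called lower. *TotA*, *TotC*, *TotB* and *TotZ* follow one another on chromosome arm 3R in the Release 6 annotation, and since they are related copies and only uniquely mapped reads were counted, reads in stretches they share would be lost. *TotX* lies in the same span as *Grik*, and *Socs36E* shares its span with lncRNA:CR44478, so without a stated strand setting their reads cannot be fully separated.

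The other 4 Turandot genes, *TotB*, *TotE*, *TotF* and *TotZ*, had at most 3 counts in any library, which is at the floor, and none was tested. Of the 7 measured pathway genes beyond the members (*upd1*, *et*, *Socs44A*, *Socs16D*, *Su(var)2-10*, *ken* and *Stam*), the *G9a* comparison called 1 lower and the *trr* comparison called 0. The called gene was *et*, a receptor related to Domeless that inhibits the pathway and lies next to *dome* on the X chromosome. *et* had 208, 247 and 268 counts in the *G9a* controls against 177, 164 and 221 in the *G9a*-labelled libraries, with no overlap after normalization (log2 fold change -0.63, SE 0.16, edgeR adjusted p = 0.0438). Leaving out any 1 of the 6 libraries ended this call (adjusted p from 0.0508 to 0.144), and *et* overlaps *Zw*, whose reads may be mixed with its own. Among genes with a group mean of at least 10 counts, which leaves out *upd1*, the next by size in that comparison was *ken*, a repressor of some Stat92E targets, at -0.26 (SE 0.10, edgeR adjusted p = 0.167). By the same count limit, the largest changes in the *trr* comparison were those of *Socs44A*, a SOCS family gene (0.47, SE 0.12, edgeR adjusted p = 0.137), and *et* (0.32, SE 0.11, edgeR adjusted p = 0.209). The median log2 fold change of the list was -0.03 for *G9a* and 0.16 for *trr*, beside 0.04 and 0.001 over all genes tested.

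A list of 8 genes described as responding to the pathway held *vir-1*, *Diedel*, *Listericin*, *Tep1*, *Tep2*, *Tep4*, *chinmo* and *zfh1*. In the *G9a* comparison 1 of the 7 tested was called, and it was lower: *Tep2*, which codes for a secreted thioester protein of the humoral response, had 1646, 2428 and 2118 counts for the controls against 1411, 1351 and 1691 in the labelled libraries. Its log2 fold change was -0.74 (SE 0.13, edgeR adjusted p = 0.0109), and without *G9a* control 2 it missed the threshold at -0.67 (adjusted p = 0.0542). *vir-1*, a gene induced by viral infection, at -0.51 (SE 0.09, edgeR adjusted p = 0.00905), *Tep4* at -0.58 (SE 0.10, edgeR adjusted p = 0.00908) and *zfh1* at -0.47 (SE 0.10, edgeR adjusted p = 0.0223) passed on p but stayed under 1.5-fold. *Diedel*, an immune-modulating cytokine, had at most 44 counts in the *G9a* experiment (log2 fold change 1.07, SE 0.59, edgeR adjusted p = 0.3). The median over the list was -0.47, beside 0.04 for all genes.

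Of these 8 genes, 0 were called in the *trr* comparison. The largest changes were those of *Diedel*, with 36 and 96 against 238 and 141 counts (log2 fold change 1.52, SE 0.47, edgeR adjusted p = 0.181), and of *Tep4*, with 5176 and 3780 against 2915 and 2848 counts (-0.63, SE 0.16, edgeR adjusted p = 0.123). Neither gene's groups overlapped, and DESeq2 called both, with adjusted p-values of 0.0294 and 0.0073. The list median was 0.03, beside 0.001 for all genes.

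Genes of the stress kinase and NF-kappaB routes that act on *TotA* or *upd3* were tested beside the members. In both comparisons 0 of the 11 measured (*Mekk1*, *p38a*, *p38b*, *lic*, *Rel*, *imd*, *Mef2*, *puc*, *kay*, *Jra* and *bsk*) were called. The largest changes were those of *p38a*, a stress-activated kinase (-0.59, SE 0.28, edgeR adjusted p = 0.242), and *Rel*, the Relish gene (-0.27, SE 0.09, edgeR adjusted p = 0.116), in the *G9a* comparison. In the *trr* comparison they were those of *Rel* (-0.57, SE 0.31, edgeR adjusted p = 0.35) and *Mekk1*, a kinase upstream of p38 (-0.47, SE 0.10, edgeR adjusted p = 0.0992). The list medians were -0.03 and 0.11, beside 0.04 and 0.001 for all genes.

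Antimicrobial peptide genes belong to a humoral response downstream of other receptors. Of 13 tested, 3 were called in the *trr* comparison, all higher, where 1.03% of all genes tested were called. *DptA* rose from 520 and 266 to 1874 and 1613 counts (log2 fold change 2.15, SE 0.30, edgeR adjusted p = 0.0438), *DptB* from 1901 and 1163 to 7660 and 6644 (2.23, SE 0.23, edgeR adjusted p = 0.0241), and *Dro* from 1790 and 1360 to 7631 and 5744 (2.09, SE 0.18, edgeR adjusted p = 0.0134). When either *trr*-labelled library was left out, 1 library remained in that group. The log2 fold changes of these genes then lay between 1.92 and 2.29, with no call. All 3 calls were also lost in the fit of all 10 libraries. The midgut protease gene *alphaTry* was called higher in the same libraries, with 0 and 1 against 34 and 35 counts (edgeR adjusted p = 0.0322), and its part in these values was not tested. *CecA1* had 358 and 4 counts in the *trr* controls against 35 and 28 in the labelled libraries (-2.51, SE 1.43, edgeR adjusted p = 0.37), and without *trr* control 1 its sign turned to 2.94. In the *G9a* comparison *CecA1* was called higher, with 8, 24 and 13 against 54, 78 and 253 counts (log2 fold change 2.79, SE 0.61, edgeR adjusted p = 0.0246), and *AttD* was called lower, with 45, 12 and 129 against 2, 6 and 10 counts (-3.67, SE 0.90, edgeR adjusted p = 0.038). The other 11 did not pass. *CecA1* lost its call without *G9a* control 1 (2.54), 2 (3.23) or 3 (2.69), and *AttD* without *G9a* control 1 (-3.82) or 3 (-2.65) or *G9a*-labelled library 1 (-3.34) or 2 (-3.63). The list median was -0.08 for *trr* and 0.76 for *G9a*, beside 0.001 and 0.04 for all genes.

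**Figure D4:**
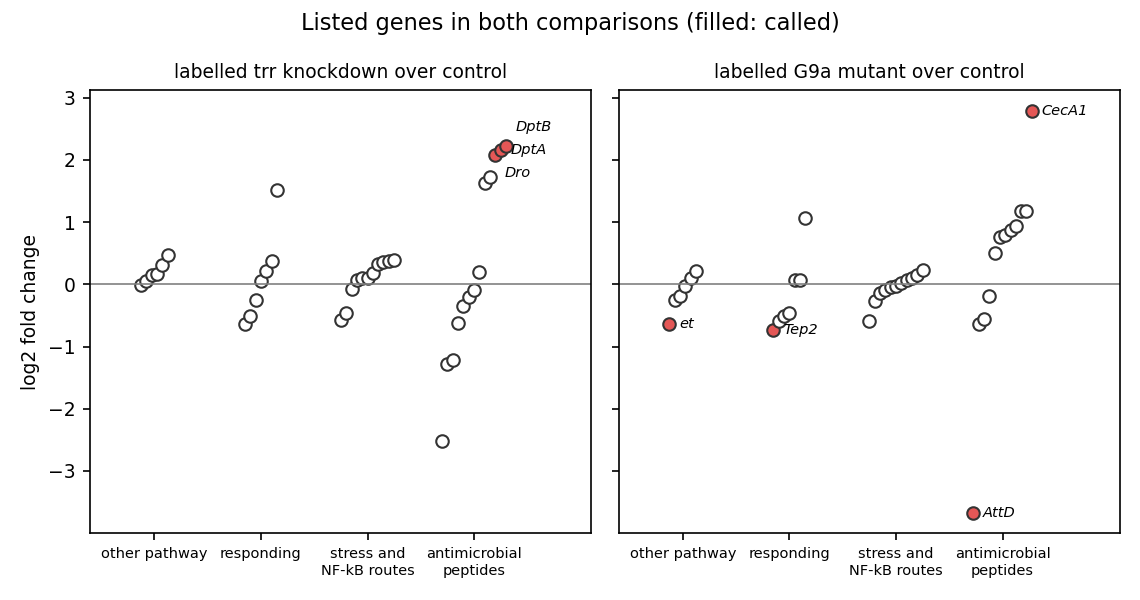
Log2 fold change of each gene of the 4 lists (points, sorted within a list) for the *trr*-labelled (left) and *G9a*-labelled (right) libraries over their controls; filled points passed the test, and genes whose mean stayed under 10 counts in both groups are not drawn. The filled points are *DptA*, *DptB* and *Dro* on the left, and *et*, *Tep2*, *CecA1* and *AttD* on the right.

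Several markers of fat body and blood cells, the tissues known for Turandot peptides and for *upd3*, were lower in the *G9a*-labelled libraries, as *TotA* and *TotC* were. In the *G9a* comparison 5.57% of all genes tested were called lower. Of the 4 fat body markers tested, 3 were called lower: *Lsp2*, a storage protein gene (log2 fold change -1.22, SE 0.18), *apolpp*, which codes for a lipid carrier (-0.82, SE 0.20), and *to*, the gene takeout (-3.28, SE 0.23). The remaining one, *Fbp1*, had at most 35 counts and was not called (1.77, SE 0.96). The summed level was 456 to 534 CPM in the *G9a* controls and 186 to 286 CPM in the labelled libraries. Of the 7 blood cell markers tested, 4 were called lower: *Hml* (-2.25, SE 0.24), *NimC1* (-3.38, SE 0.51), *Sr-CI* (-2.06, SE 0.28) and *srp* (-0.68, SE 0.15). *crq* (0.01, SE 0.11) and *Pxn* (0.17, SE 0.11) were not called, nor was *eater*, with at most 13 counts. The summed level of all 8 listed was 318 to 375 CPM in the controls and 286 to 314 CPM in the labelled libraries.

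Markers of other cell types and of the sexes were read in the same comparison. Of 4 glia markers the astrocyte gene *alrm* was called lower (-1.62, SE 0.19), and *repo* (-0.22), *Eaat1* (-0.39) and *moody* (-0.44) were not called. *moody* passed on p (edgeR adjusted p = 0.0224) but stayed under 1.5-fold. The 4 photoreceptor markers had log2 fold changes from 0.24 to 0.48, all under 1.5-fold, and of them only *ninaE* passed on p (edgeR adjusted p = 0.0292). Their summed level was 33660 to 40100 CPM in the controls and 51360 to 51980 CPM in the labelled libraries, with no overlap. The male-specific RNAs *roX1* (0.58, SE 0.14, edgeR adjusted p = 0.033, under 1.5-fold) and *roX2* (0.83, SE 0.24, edgeR adjusted p = 0.064) lay higher and the yolk protein genes of female fat body lay lower (*Yp1* -0.92, *Yp2* -1.18, *Yp3* -0.63), and none of these 5 was called. The 4 neuron markers were not called. Of the 3 flight muscle markers tested, *Act88F* was called lower (-0.615, SE 0.123), and *fln* (0.727, SE 0.194) and *Mf* (0.144, SE 0.123) were not called. The part of these cell types and of the sexes in the *TotA* and *TotC* values was not tested.

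**Figure D5:**
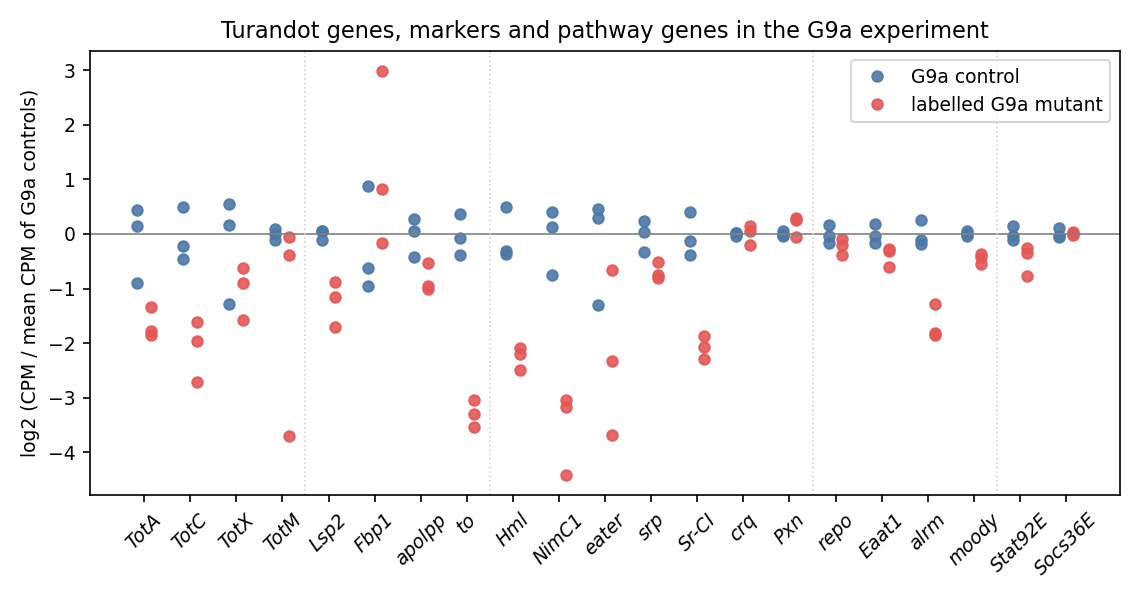
Log2 of the CPM of each gene over the mean CPM of the 3 *G9a* controls, in each of the 6 libraries of the *G9a* experiment (points), for the Turandot genes, every fat body, blood cell and glia marker tested, and *Stat92E* and *Socs36E*, separated by dotted lines. *TotA* and *TotC* lie below 0 in all 3 labelled libraries. So do the 8 drawn markers that were called lower, and also *eater*, *repo*, *Eaat1*, *moody*, *TotX*, *TotM* and *Stat92E*. The labelled libraries lie on both sides of 0 for *crq*, *Pxn*, *Fbp1* and *Socs36E*.

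Among the same markers, 0 of the 4 for fat body and 0 of the 8 for blood cells were called in the *trr* comparison. All 8 blood cell markers had log2 fold changes above 0 there (median 0.376, beside 0.001 over all genes tested). Their summed level was 503 to 514 CPM in the controls and 623 to 646 CPM in the labelled libraries. *Yp1* (-1.15, SE 0.15) and *Yp3* (-0.96, SE 0.14) were called lower, and *Yp2* (-0.325, SE 0.105) was not called. The male-specific RNAs *roX1* (-0.292, SE 0.098) and *roX2* (-0.444, SE 0.171) lay lower as well and were not called. Between the 2 sets of controls, where *TotA* differed most, *apolpp* was higher by 3.09 (SE 0.20) and *srp* by 1.44 (SE 0.15) in the *trr* controls, whereas *Lsp2* (0.38, SE 0.18) and *to* (-0.53, SE 0.22) were not called. In all, 1 of 4 fat body markers and 5 of 8 blood cell markers were called higher there, where 14.0% of all genes tested were called higher. The male-specific RNAs *roX1* and *roX2* were higher too, by 1.62 (SE 0.14) and 2.17 (SE 0.23). Of the yolk protein genes of female fat body, *Yp3* was also called higher (1.105, SE 0.368). *Yp1* (0.603, SE 0.311) and *Yp2* (-0.18, SE 0.335) were not called between the controls. The part of tissue makeup and of the sexes in that contrast was not tested.

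The genes whose pattern was most like that of *TotA*, which had the largest spread of the members over the 10 libraries (SD 2.57 of log2 CPM), were *Pgls* (r = 0.995), *CG9928* (0.992), *P5cr-2* (0.991), *CG3663* (0.991) and *tobi* (0.991), among 8941 genes with at least 100 counts in some library. All of these values carry the step between the experiments. For *Socs36E*, with an SD of 0.18, they were *bw* (0.972), *AnxB10* (0.966), *CG7492* (0.956), *woc* (0.952) and *neur* (0.936). *Socs36E* lay at 71.6 CPM in *trr* control 2 and at 68.5 and 71.4 CPM in the *trr*-labelled libraries. It lay at no more than 59.5 CPM elsewhere, *trr* control 1 included, and its correlations carry that split.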

How the data were processed

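RNA-seq libraries of 10 head samples were analysed. Per the labels and methods, the authors aligned reads to dm3 (BDGP5) with BWA 0.6.1, discarded reads that mapped to several places, and obtained gene counts with HTSeq. The strand setting is not given in the sources used here. The deposited values are raw counts, from which 5 summary lines per file were dropped (9.29% to 18.0% of a file lay outside genes). The deposited list of trr binding sites and the 3 ChIP and input samples were not used.

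Symbols, neighbours and overlaps came from a Release 6 table, which named 15002 genes (95.7%). No coordinates of it were used. Of 104 listed symbols 97 were measured, and *Ptp61F*, *p38c*, *Drs*, *FASN1*, *Mtp*, *nos* and *vas* were not analysed here.

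Each experiment was fitted alone in R 4.3.3 with edgeR 4.0.16 (at least 10 counts summed over the libraries, TMM, quasi-likelihood test, Benjamini-Hochberg adjustment over all genes tested), and the difference of the effects and the contrast of the controls in 1 fit over 10 libraries. The code was tested on simulated data. Folds are given where a group's mean reached 10 counts. Intervals are 95% intervals of the fit. Samples were grouped by their labels, which describe the replicates as biological. Members and lists were chosen with earlier results of these data known. All members are named, with trr and G9a, and, of each list, the genes called and the 2 with the largest change. Likeness used Pearson's r of log2 CPM (prior count 2). Other markers were named after their values were seen.

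Alternatives were RLE normalization, DESeq2 1.42.0, no filter, filterByExpr, the adjusted p alone, glmTreat, the replicate number as a block, all 10 libraries in 1 fit, reads outside genes as a covariate and leaving out each library. Same-numbered *G9a* libraries deviated together (r = 0.27, 0.189 and 0.494). So did *G9a* control 1 with labelled library 2 (r = 0.253) and *G9a* control 2 with labelled library 1 (r = 0.145). Pairs of a library 3 with a library of another number had r from -0.397 to -0.213. The values thus set replicate 3 apart and do not pair replicates 1 and 2 by number. The fit with the replicate block is given as an alternative to the reported fit, which has none. No source names what same-numbered libraries share.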

Additional observations from a re-analysis of the deposited data

Results flagged for a closer look

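For *TotA* and *TotC*, the change in the *trr* comparison and that in the *G9a* comparison differed by a test of the difference itself. The log2 fold change of the *trr*-labelled libraries exceeded that of the *G9a*-labelled libraries by 1.65 for *TotA* (SE 0.41, edgeR adjusted p = 0.0314) and by 1.86 for *TotC* (SE 0.44, edgeR adjusted p = 0.0245). The control genotypes of the experiments differ, as do the levels of both genes in those controls, and the part of either in the difference was not tested. Tests for single deviating libraries were not run, since they need groups of at least 4.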

How the results depend on the processing

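Of 384 alternative values for the members, 344 kept direction and call, 21 lost a call, 4 gained one and 15 changed sign. With all alternatives the direction of *TotA* and *TotC* in the *G9a* comparison, in the difference and between the controls was kept. The adjusted p alone and glmTreat rest on the reported fit, so they could not change a direction. The count of members called in the *G9a* comparison was 0 under glmTreat (against a change of 1.5-fold) and 1 with reads outside genes as a covariate, and 0 to 2 when 1 library was left out. Leaving out 1 library gave 0 to 1 members called in the *trr* comparison, 0 to 3 for the difference and 3 to 4 between the controls. All genes called in the *trr* comparison numbered 118, against 496 with DESeq2, 29 with no filter, 35 under glmTreat, 246 in 1 fit over 10 libraries, 819 with the replicate block, and 0 to 2009 without 1 library. In the *G9a* comparison they numbered 932, against 313 under glmTreat and 652 to 944 without 1 library.

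The replicate block in the *G9a* comparison gave 1094 genes and the same count of members called, 2, and in the difference again 2; it changed no call of a member. In the *trr* comparison same-numbered libraries deviated apart (r = -0.114), so a crossed replicate block was added after seeing the data, with 902 genes and 0 members called. With 2 libraries in each group the crossed r of 0.114 is fixed as the opposite of that value. It is thus no separate sign of pairing, and either block leaves little from which to estimate the spread.

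Some uncalled changes turned sign, most of them near 0. In the *G9a* comparison *Socs36E* was -0.0057 under filterByExpr, -0.00063 in 1 fit over 10 libraries, -0.033 without replicate 3 of both groups (added after seeing the data) and -0.042 to 0.048 without 1 library, and *hop* -0.15 to 0.0019. In the *trr* comparison the ranges without 1 library were -0.19 to 0.22 for *TotA*, -0.41 to 0.061 for *TotC*, -0.37 to 0.091 for *Stat92E* and -0.039 to 0.41 for *Socs36E*. Larger uncalled changes turned as well: *Rel* (-0.57) ranged from -0.98 to 0.0097, and *CecA1* (-2.51) from -3.5 to 2.94, with the positive value without *trr* control 1. Between the controls the ranges were -0.2 to 0.29 for *Stat92E* and -0.074 to 0.35 for *Socs36E*. The causes were not tested. With 1 library left in a *trr* group, it was assumed to vary like the other group. Depth limits *upd2*, *upd3* and the 4 remaining Turandot genes, and *TotA*, *TotC* and *TotX* in the *G9a* experiment, where 10 to 201 counts per library were found.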
